A study of Mus musculus with 12 samples.

Results

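The genes described here are the 5 subunits of the transcription factor NF-kB (Nfkb2, Relb, Rela, Rel and Nfkb1) and 5 components of the noncanonical pathway that acts on them (the receptor Ltbr, the adaptors Traf2 and Traf3, and the kinases Map3k14 and Chuk). They were chosen by symbol, as 10 of the 46517 genes listed, and all 10 were among the 12522 genes with enough reads to be tested. RNA was measured in intestinal epithelial cells (IECs) detached with EDTA from the colon of C57BL/6 mice aged 7 to 9 weeks. The 4 groups of 3 samples were untreated wild-type (WT) mice, WT mice given dextran sulfate sodium (DSS) for 48 h, untreated Nfkb2-/- (knockout, KO) mice, and Nfkb2-/- mice given DSS for 48 h. DSS is a polysaccharide that injures the colonic epithelium. The samples are called biological replicates in the series text. The labels name no cell type to which the deletion is limited and do not say which part of Nfkb2 is deleted.

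NF-kB proteins bind DNA as pairs of Rel family subunits. In the canonical pathway, inflammatory receptors activate a kinase complex that destroys IkB inhibitors and releases mainly Rela-containing dimers. In the noncanonical pathway, receptors such as the lymphotoxin beta receptor (Ltbr) lead to loss of Traf3, which with Traf2 keeps the kinase NIK (Map3k14) low. NIK then acts with IKK-alpha (Chuk) so that p100, the Nfkb2 precursor, is trimmed to p52, the usual partner of Relb. Untrimmed p100 also acts as an IkB-like inhibitor. In the gut, noncanonical signalling is known for its part in forming lymphoid tissue and M cells.

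Libraries held 5595909 to 8117740 counts, with 15738 to 17120 genes detected in each. In the labels all WT libraries are numbered before all KO libraries, so an effect of genotype and an effect of library numbering cannot be told apart. Summed over 8 epithelial markers, the level in CPM (read counts normalised to library size with TMM factors) was 24692 to 33096 in untreated WT, 25481 to 26609 in DSS-treated WT, 25212 to 26753 in untreated KO and 21735 to 23472 in DSS-treated KO. Of the 8, 2 were lower in KO averaged over treatments, where 5.95% of all genes tested were called. Markers of B cells, endothelium and stroma were low. The 6 B cell markers summed to at most 5.16 CPM. The 4 endothelial markers summed to 0 to 2.495 CPM outside DSS-treated KO and 1.63 to 4.85 CPM in it (Pecam1 in 11 of 12 libraries, Kdr at 0 in all). The 6 stromal markers summed to 0 in DSS-treated WT and 0.155 to 2.495 CPM elsewhere (Dcn had 55 counts in all, Pdgfra and Lum 0). The 5 plasma cell markers summed to 630 to 812 CPM over the 12 libraries. Most of this was Sdc1 and Xbp1 (means 323 and 362 CPM), with Jchain, Igkc and Mzb1 at 5.45, 8.91 and 0.055 CPM. Leukocyte markers were not level between the groups: 6 pan-leukocyte markers summed to 24.6 to 41.1 CPM in untreated WT, 54.8 to 62.7 in DSS-treated WT, 76.3 to 96.9 in untreated KO and 121 to 156 in DSS-treated KO. In such bulk samples, fewer cells of a type and less RNA per cell cannot be told apart.

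Nfkb2, the targeted gene, was lower in all 6 KO libraries than in all 6 WT libraries. It stood at 30.8, 36.1 and 43.7 CPM in untreated WT, at 41.6, 46.1 and 39.6 in DSS-treated WT, at 11.7, 17.5 and 13.9 in untreated KO and at 19.6, 15.6 and 17.2 in DSS-treated KO. The counts were 87 to 143 per KO library against 211 to 346 per WT library, so the KO libraries stood at 40.1% of the WT level on average. By edgeR's quasi-likelihood test the KO was lower by a log2 fold change of -1.36 untreated (95% interval -1.78 to -0.94, adjusted p 0.00123) and of -1.28 under DSS (-1.70 to -0.86, adjusted p 0.00224). An exact two-sided permutation test over 6 KO and 6 WT libraries gave p = 0.00216 from 924 rearrangements, the smallest p this design allows. Gene-level counts do not show whether the remaining KO reads come from the deleted part of the gene.

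The Nfkb2 gene occupies chr19:46304320-46312385, plus strand (GRCm38, GENCODE M21). Its exons share 299 bases, 6.52% of their length, with Psd on the opposite strand, and 531 bases with the antisense gene AC114539.1. The library method does not mark strand, so reads of these stretches cannot be assigned to one gene. Psd had 7 to 45 counts per library, with 5.43 ± 1.02 CPM (SD, n = 3) in DSS-treated WT and 2.04 ± 0.49, 1.34 ± 0.45 and 1.59 ± 0.23 CPM in untreated WT, untreated KO and KO under DSS. Chuk lies 2.20 Mb from Nfkb2 on the same chromosome, and Rela 40.7 Mb away.

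Nfkb2 is itself a known NF-kB target, and stretches upstream of its annotated starts hold copies of the kappaB consensus, the DNA word that NF-kB dimers bind. The windows below are shown because 3 of the listed genes share this word near their starts. They come from RefSeq promoters (GRCm38.p6), searched on both strands over the 250 bases before each start, and read 5′ to 3′ on the gene's strand. The consensus searched was GGGRNWYYCC (R is A or G, W is A or T, Y is C or T, N is any base). Capitals mark bases matching the consensus, with overlapping matches merged.
Nfkb2, chr19:46304689-46304717: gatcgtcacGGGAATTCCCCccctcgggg
Nfkb2, chr19:46304716-46304736: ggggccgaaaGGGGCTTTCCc
Nfkb2, chr19:46305449-46305478: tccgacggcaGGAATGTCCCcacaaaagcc
Nfkb2, chr19:46305695-46305724: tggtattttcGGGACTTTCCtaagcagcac
Rel, chr11:23771042-23771070: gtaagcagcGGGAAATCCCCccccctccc
Traf3, chr12:111166350-111166369: ggcggcccgcGGGGATTTCC

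The first 2 windows precede the same Nfkb2 start, with the match beginning at position -39 and at position -11. The match at position -236 is on the opposite strand, and it and the match at position -225 belong to the other two starts. The Nfkb2 windows with matches at positions -39, -11 and -225 touch an annotated exon. Rel is on the minus strand of chromosome 11, with its match at position -92, and the Traf3 match begins at position -10. A match was present for 3 of the 8 listed genes that have a promoter in the table (37.5%), against 4.46% of all 27025 genes with a promoter. The promoters of Rela, Map3k14, Chuk, Traf2 and Ltbr held no match. Relb and Nfkb1 had no promoter among those given, so they were not searched. A match is a description of sequence and not a measured binding site.

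Across the 10 genes, DSS and the loss of Nfkb2 left few changes past the threshold. Neither DSS contrast called any of them (0 of 10 in WT, against 6.3% of all genes tested, and 0 of 10 in KO, against 3.92%). At an unadjusted p under 0.05 there was 1 in each, Rel in WT and Rela in KO, where 17.6% and 15.9% of all genes had such a p. DESeq2 also called 0 in both. With edgeR, KO against WT called Nfkb2 alone, both untreated (1 of 10, against 3.48%) and under DSS (1 of 10, against 3.11%). Of the 10, 3 had an unadjusted p under 0.05 in each of these (against 15.4% and 14.6%): Nfkb2, Relb and Traf3 untreated, and Nfkb2, Traf2 and Traf3 under DSS. DESeq2 called 2 in each, with Relb passing untreated (DESeq2 adjusted p 0.0345) and Traf2 under DSS (0.0231). Among all genes DESeq2 called 736 untreated and 637 under DSS, against 436 and 390 with edgeR. Averaged over treatments, KO against WT called Nfkb2 and Relb with edgeR (2 of 10, against 5.95%), with 4 (these and Traf2 and Traf3) at an unadjusted p under 0.05 (against 18.6%). DESeq2 called 4 in this average, where it called 1094 of all genes against 745 with edgeR. DSS averaged over genotypes called 0 with edgeR and with DESeq2 (against 8.92%), with 3 (Rela, Rel and Ltbr) at an unadjusted p under 0.05 against 21.9% of all genes. The interaction (the DSS change in KO after subtracting that in WT) called 0 of 10 (against 1.7%) by either tool, with 0 at an unadjusted p under 0.05 (against 10.6%). Nfkb2 is the targeted gene, so its calls in KO against WT follow from the design. For the 9 other genes, 0 of 45 edgeR results in the 5 contrasts passed.

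**Figure D1:**
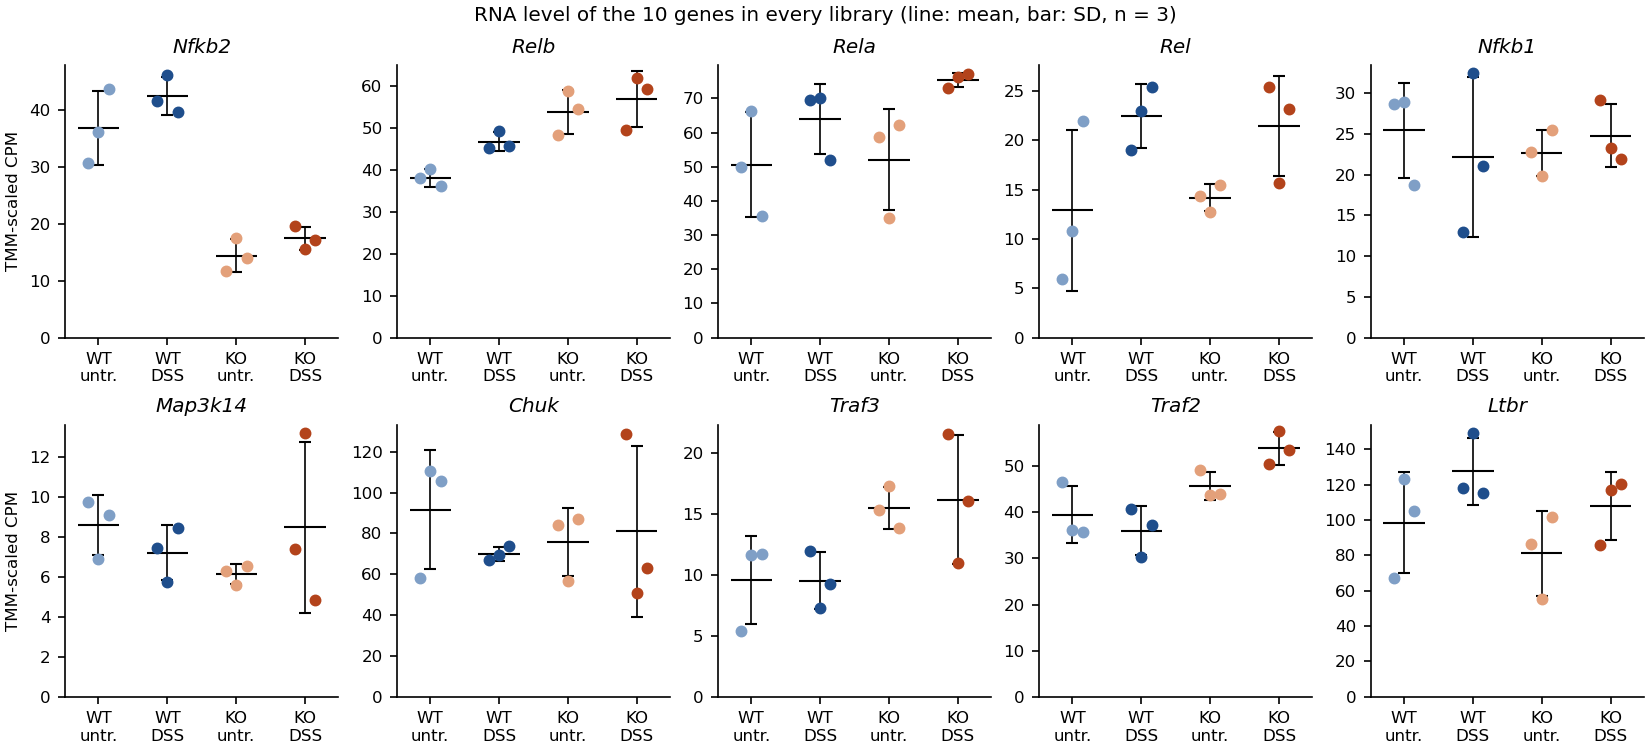
TMM-scaled CPM of the 10 genes (y axes, each from 0) in each library of the 4 groups (x axes; points, with the group mean as a line and the SD as a bar, n = 3). Nfkb2 sits at 11.7 to 19.6 CPM in the KO libraries and 30.8 to 46.1 in the WT libraries, whereas Chuk, Nfkb1 and Map3k14 scatter widely within groups.

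Relb (chr7:19606217-19629438, minus strand), whose protein pairs with p52, was slightly higher in KO cells when the treatments were averaged. Its level was 38.0, 40.4 and 36.2 CPM in untreated WT, 45.3, 49.3 and 45.8 in DSS-treated WT, 48.5, 59.0 and 54.5 in untreated KO and 49.5, 62.1 and 59.4 in DSS-treated KO. KO and WT did not overlap within either treatment, but WT replicate 2 under DSS lay above the lowest untreated KO library. Averaged over treatments, the log2 fold change of KO against WT was 0.39 (95% interval 0.18 to 0.60, a fold of 1.31, edgeR adjusted p 0.0297). The call was lost when WT untreated replicate 1 or 2, any WT DSS library, KO untreated replicate 2 or 3, or KO DSS replicate 2 or 3 was left out (log2 fold change 0.36 to 0.41, adjusted p 0.0501 to 0.0838), and with every gene of at least 1 count kept (0.40, adjusted p 0.0685). It passed in 7 of 17 alternatives in all.

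Within untreated cells, Relb in KO against WT gave a log2 fold change of 0.50 (95% interval 0.20 to 0.80, edgeR adjusted p 0.0682, DESeq2 0.0345). That difference passed in 1 of 18 alternatives (edgeR adjusted p up to 0.243). Under DSS it was 0.29 (-0.01 to 0.58, edgeR adjusted p 0.37). DSS itself gave 0.29 in WT (-0.01 to 0.60, adjusted p 0.299), with all 3 DSS libraries above all 3 untreated ones, and 0.08 in KO (-0.22 to 0.38, adjusted p 0.86). The pan-leukocyte sum and the Relb level had the same order of groups, lowest in untreated WT and highest in DSS-treated KO. Of 5 pan-leukocyte markers tested, 4 were higher in KO when averaged over treatments, as were 4 of 6 T cell and 3 of 7 myeloid markers. Of 4 plasma cell markers tested, 0 were higher and 2 lower. In the same contrast 5.95% of all genes tested were called. The part of leukocyte RNA in the Relb result was not tested.

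**Figure D2:**
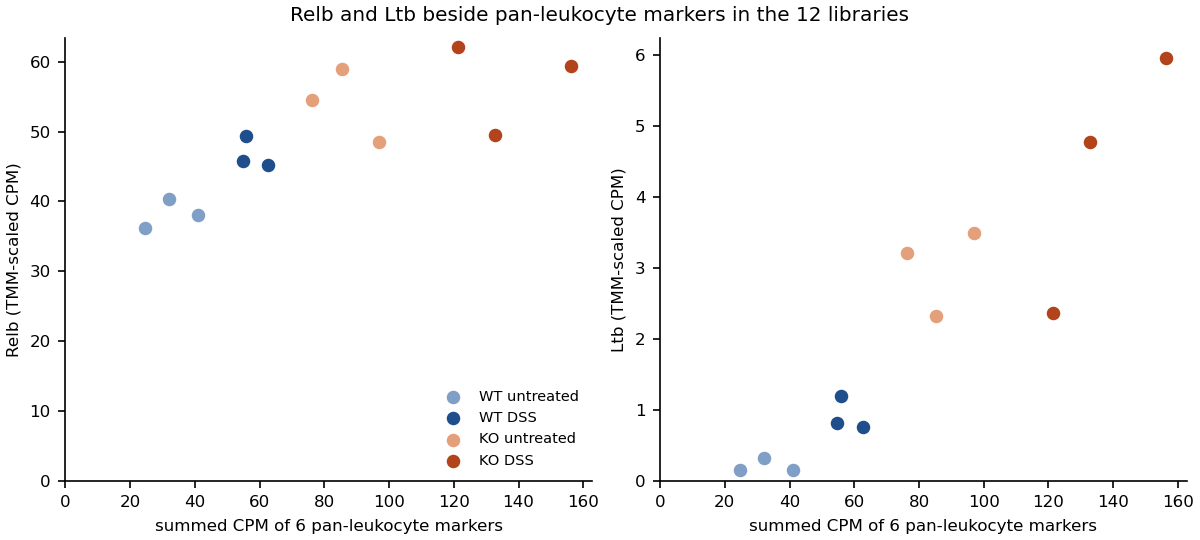
Relb (left) and Ltb (right), as TMM-scaled CPM on the y axes, against the summed CPM of 6 pan-leukocyte markers on the x axes, with 1 point per library coloured by group. The groups lie from left to right as untreated WT, WT under DSS, untreated KO and KO under DSS, while within KO under DSS the library with 62.1 CPM of Relb has the lowest marker sum, 121.

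Rela (chr19:5637483-5648130, plus strand), which encodes p65, the main activating subunit of canonical dimers, varied most among untreated cells. It was measured at 49.8, 66.3 and 35.7 CPM in untreated WT, 69.6, 70.0 and 52.02 in DSS-treated WT, 58.8, 35.0 and 62.3 in untreated KO and 73.2, 76.4 and 77.0 in DSS-treated KO. The KO libraries under DSS lay close together and above every other library, while 2 untreated libraries stood at about the same low level. The DSS difference was 0.54 in KO (95% interval 0.04 to 1.03, edgeR adjusted p 0.263) and 0.34 in WT (-0.16 to 0.84, adjusted p 0.53). Averaged over genotypes it was 0.44 (0.09 to 0.79, adjusted p 0.123), and it passed without WT untreated replicate 2 (0.56, adjusted p 0.0485) or with every gene of at least 1 count kept (0.43, adjusted p 0.0172). The average passed in 2 of 17 alternatives in all (edgeR adjusted p up to 0.245).

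Rel (chr11:23736847-23770970, minus strand), which encodes c-Rel, a subunit best known from lymphocytes, had 41 to 172 counts per library. Its levels were 5.98, 10.8 and 21.9 CPM in untreated WT, 19.0, 22.9 and 25.4 in DSS-treated WT, 14.4, 12.7 and 15.4 in untreated KO and 25.5, 15.7 and 23.1 in DSS-treated KO. Replicate 3 of untreated WT lay within the range of the DSS groups, and the other 5 untreated libraries lay below all 6 DSS libraries. The DSS difference averaged over genotypes was 0.70 (95% interval 0.17 to 1.23, edgeR adjusted p 0.102). Without WT untreated replicate 3 it became 1.01 (adjusted p 0.00391), and that in WT went from 0.80 (adjusted p 0.251) to 1.42 (adjusted p 0.0089). With every gene of at least 1 count kept the average was 0.69 (adjusted p 0.00914). In all, the average passed in 2 of 17 alternatives and the WT difference in 1 of 18 (edgeR adjusted p up to 0.197 and 0.531).

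Nfkb1 (chr3:135584655-135691547, minus strand) encodes p105, the precursor of p50, which is the usual partner of Rela. It was measured at 28.7, 28.9 and 18.7 CPM in untreated WT, 12.9, 32.4 and 21.0 in DSS-treated WT, 22.8, 19.8 and 25.4 in untreated KO and 29.2, 23.3 and 21.9 in DSS-treated KO. The lowest and the highest library were both DSS-treated WT, and all groups overlapped. KO against WT averaged over treatments gave 0.00 (95% interval -0.43 to 0.43), so folds from 0.741 to 1.34 lie within the interval. DSS gave -0.20 in WT (-0.81 to 0.41, adjusted p 0.815) and 0.13 in KO (-0.48 to 0.73, adjusted p 0.892).

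Ltbr (chr6:125306571-125313885, minus strand) encodes the lymphotoxin beta receptor, which is known on epithelial and stromal cells rather than lymphocytes. It stood at 67.3, 123 and 105 CPM in untreated WT, 118, 149 and 115 in DSS-treated WT, 86.2, 55.2 and 102 in untreated KO and 85.7, 117 and 121 in DSS-treated KO. The groups overlapped in every comparison. DSS averaged over genotypes gave 0.39 (95% interval 0.04 to 0.75, edgeR adjusted p 0.181), which passed with every gene of at least 1 count kept (adjusted p 0.0101), and KO against WT averaged over treatments gave -0.26 (-0.62 to 0.10, adjusted p 0.447). The DSS average passed in 1 of 17 alternatives in all (edgeR adjusted p up to 0.351).

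Traf2 and Traf3 encode the adaptors that together keep NIK low. Traf2 (chr2:25517982-25546940, minus strand) stood at 46.6, 36.3 and 35.7 CPM in untreated WT, 40.7, 30.3 and 37.2 in DSS-treated WT, 49.3, 43.8 and 44.1 in untreated KO and 50.6, 57.7 and 53.5 in DSS-treated KO. All 3 KO libraries under DSS lay above the other 9. KO against WT gave 0.58 under DSS (95% interval 0.24 to 0.92, edgeR adjusted p 0.0701) and 0.40 averaged over treatments (0.15 to 0.64, adjusted p 0.0542), just outside the threshold. Both passed with DESeq2 (adjusted p 0.0231 and 0.0253) and without WT untreated replicate 1 (0.58, adjusted p 0.0478, and 0.46, adjusted p 0.0278). The average also passed with at least 10 counts required in every sample (adjusted p 0.0497). In all, the difference under DSS passed in 2 of 18 alternatives and the average in 3 of 17 (edgeR adjusted p up to 0.252 and 0.129).

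Traf3 (chr12:111166370-111267153, plus strand), the adaptor whose loss lets NIK build up, was read at 5.39, 11.6 and 11.7 CPM in untreated WT, 11.997, 7.33 and 9.30 in DSS-treated WT, 15.3, 17.3 and 13.9 in untreated KO and 21.6, 10.97 and 16.1 in DSS-treated KO. A single KO library, replicate 2 under DSS, lay within the WT range. KO against WT averaged over treatments gave 0.73 (95% interval 0.24 to 1.22, a fold of 1.66, edgeR adjusted p 0.0808), and DESeq2 gave an adjusted p of 0.0428. With every gene of at least 1 count kept, the edgeR adjusted p was 0.0233. The average passed in 2 of 17 alternatives in all (edgeR adjusted p up to 0.181). The higher leukocyte marker sums of KO stand beside the Traf2 and Traf3 values as well, and their part in them was not tested.

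Map3k14 (chr11:103219762-103267472, minus strand) encodes NIK, a kinase controlled mainly through protein turnover. It had the lowest counts of the 10 genes, 35 to 89 per library. Untreated KO libraries held 6.33, 5.61 and 6.53 CPM, below the 9.77, 6.89 and 9.12 of untreated WT, a log2 fold change of -0.48 (95% interval -1.22 to 0.26, edgeR adjusted p 0.59). Under DSS it was 7.44, 5.73 and 8.48 in WT and 7.43, 13.2 and 4.85 in KO, so DSS-treated KO held both the highest and the lowest value of all 12 libraries. Chuk (chr19:44073335-44107480, minus strand), which encodes IKK-alpha, stood at 58.0, 111 and 106 CPM in untreated WT, 67.0, 69.2 and 73.9 in DSS-treated WT, 84.0, 56.6 and 86.9 in untreated KO and 129, 51.0 and 63.2 in DSS-treated KO. Its extremes, too, were both DSS-treated KO libraries. Its KO against WT difference averaged over treatments was -0.03 (-0.49 to 0.43, adjusted p 0.965), and folds from 0.711 to 1.35 lie within its interval.

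**Figure D3:**
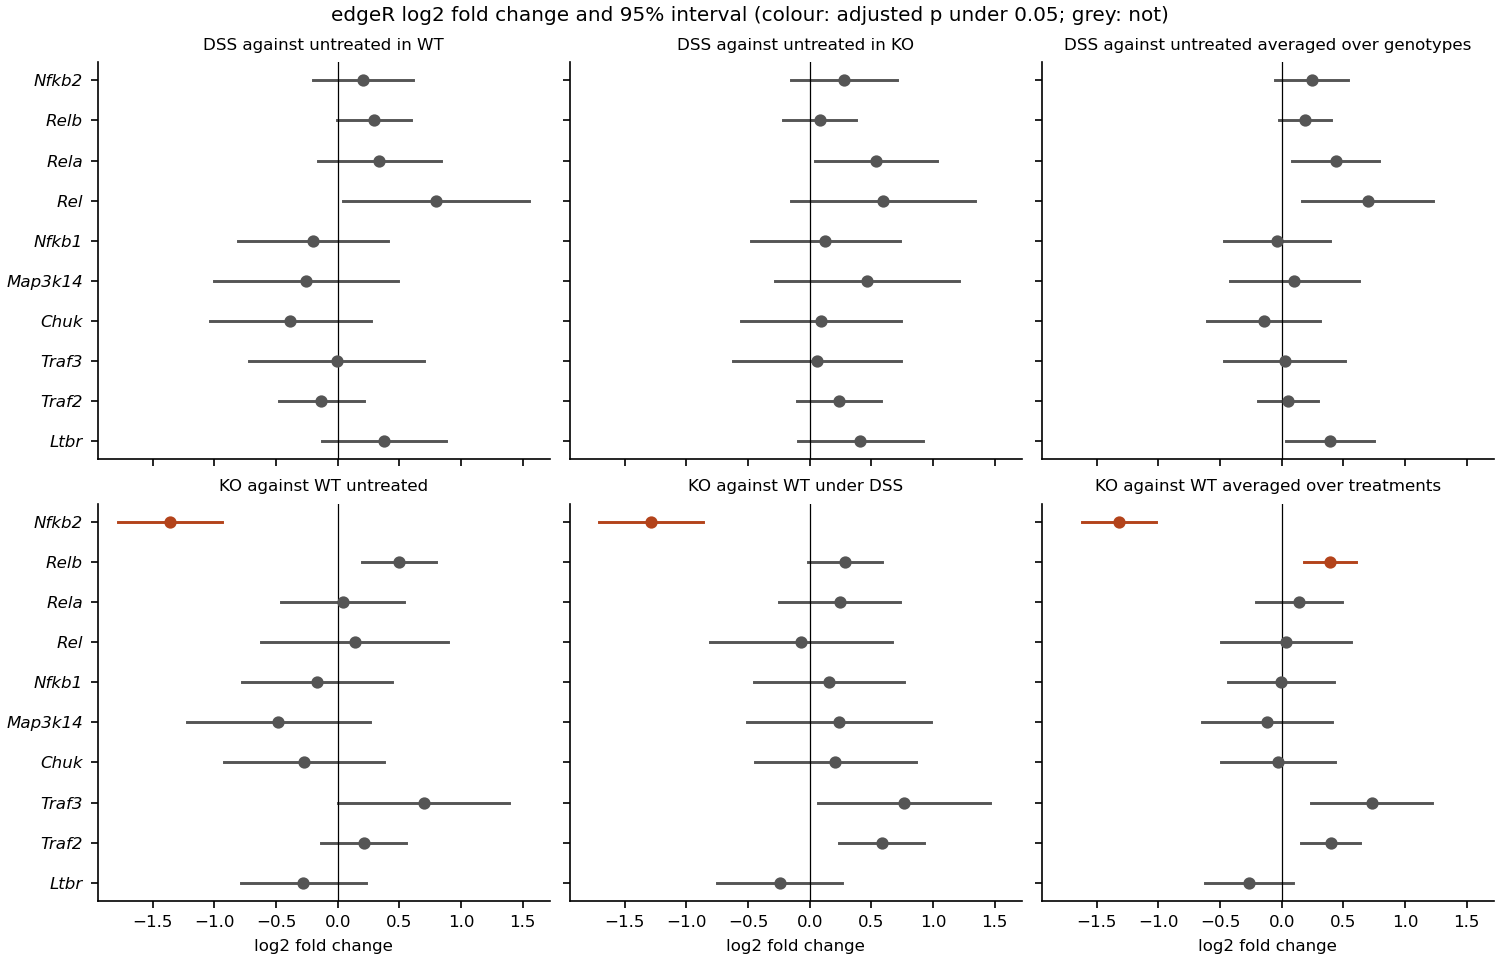
Log2 fold change (x axes) of the 10 genes (rows) in 6 comparisons, with points for the edgeR estimate and lines for its 95% interval, coloured where the adjusted p was under 0.05. The coloured points are Nfkb2 in the 3 KO against WT panels, between -1.36 and -1.28, and Relb in the average over treatments, at 0.39.

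Some of the 10 genes had groups of 3 that did not overlap, which is common among all genes tested as well. DSS against untreated separated 1 of 10 in WT (Relb, against 20.6% of all genes) and 3 of 10 in KO (Rela, Rel and Traf2, against 24.3%). KO against WT separated 4 of 10 untreated (Nfkb2 and Map3k14 lower, Relb and Traf3 higher, against 19.3%) and 4 of 10 under DSS (Nfkb2 lower, Relb, Rela and Traf2 higher, against 22.3%). With 6 libraries on each side, KO against WT separated Nfkb2 (1 of 10, against 2.25%) and DSS separated 0 (against 3.83%). These comparisons share libraries with each other. Nfkb2 is the targeted gene, so its separation in KO against WT follows from the design.

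Levels of different genes were compared as CPM per kilobase of merged exons, as means over the 12 libraries. The order was Ltbr (44.1), Rela (19.7), Chuk (15.6), Relb (12.6), Traf2 (8.59), Nfkb2 (6.06), Rel (2.38), Nfkb1 (1.97), Traf3 (1.73) and Map3k14 (1.16). This order pools WT and KO. In WT, Nfkb2 stood at 8.04 untreated and 9.26 under DSS, above Traf2 (7.75 and 7.07), and in KO at 3.13 and 3.81, below it (8.96 and 10.6). In untreated WT, Chuk (18.0) stood above Rela (16.5). The top lay 37.9 times above the bottom on this scale, and the ranges of every pair of neighbours overlapped. Within single libraries, Ltbr exceeded Rela, Relb exceeded Traf2 and Nfkb2 exceeded Rel in 12 of 12, whereas Nfkb1 exceeded Traf3 in 6 of 12. The order depends on the gene length used: with the longest transcript, 6 of the 10 genes kept their rank. The largest difference in length was in Nfkb1, whose merged exons span 12061 bases against 4149 for its longest transcript.

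As shares of the summed level per kilobase of the 5 subunits, Rela and Relb made up most of the Rel family RNA. Rela held 42.6% ± 8.38 (SD, n = 3) in untreated WT, 44.1% ± 4.19 in DSS-treated WT, 44.3% ± 9.16 in untreated KO and 51.2% ± 0.23 in DSS-treated KO. Relb held 25.9% ± 1.86, 25.8% ± 1.71, 37.2% ± 6.76 and 30.5% ± 2.97 in the same order. Nfkb2 held 21.3% ± 5.17 and 19.8% ± 0.52 in the WT groups, and 8.44% ± 2.49 and 7.95% ± 1.10 in the KO groups. Rel held 4.65% to 6.47% on average per group and Nfkb1 3.87% to 5.52%. With the longest transcript as gene length, Nfkb1 held 9.19% to 12.8% and Rel 3.75% to 5.31%, so the place of Nfkb1 above or near Rel depends on the length. A fall of Nfkb2 raises the other shares by construction, so the shares describe composition and add no evidence of a change in the other subunits.

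**Figure D4:**
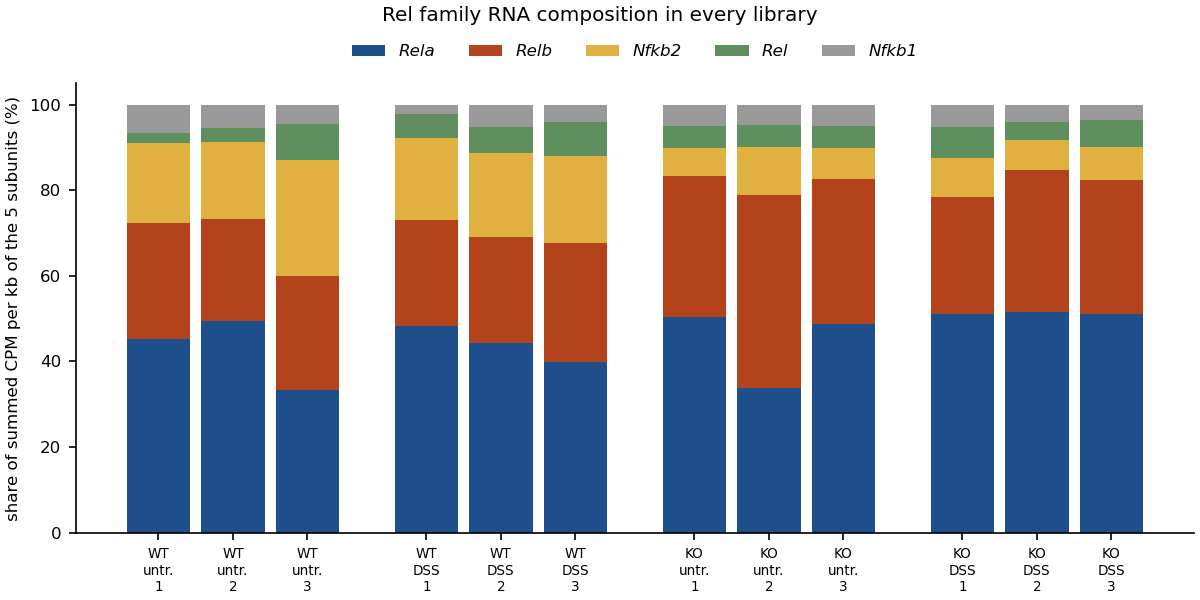
Share of the summed CPM per kilobase of the 5 NF-kB subunits (y axis, %) held by each subunit in each of the 12 libraries (x axis, 1 stacked bar per library). Nfkb2 takes 18.0% to 27.3% of the bar in WT and 6.72% to 11.3% in KO.

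Relb stood below Rela by a log2 ratio per kilobase of -0.62 ± 0.38 (SD, n = 12), and above it in 1 library, KO untreated replicate 2, at 0.41. There Rela was at its lowest of all 12 libraries (35.0 CPM). Between the precursor genes, the log2 ratio of Nfkb2 to Nfkb1 was 1.94 ± 0.60 and 2.43 ± 0.60 in untreated and DSS-treated WT and 0.73 ± 0.43 and 0.90 ± 0.13 in untreated and DSS-treated KO (SD, n = 3). In single libraries it ran from 0.44 to 3.08. With the longest transcript in place of merged exons these group means became 0.66 and 1.15 in WT and -0.56 and -0.39 in KO, and the mean over the 12 libraries went from 1.4997 to 0.21. The direction in KO thus turns with the length used.

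Around these genes, 74 others of the pathway were listed in 7 groups by role, and 54 were tested. The lists were chosen with earlier results of these data known. The shares below therefore describe the listed genes and are no test of an excess over all genes. DSS in WT called 7 higher and 0 lower (12.96% of the 54, against 6.3% of all genes tested), and DSS in KO called 4 higher and 0 lower (7.41%, against 3.92%). KO against WT called 5 higher and 1 lower untreated (11.1%, against 3.48%), and 4 higher and 1 lower under DSS (9.26%, against 3.11%). The interaction called 0 higher and 4 lower (7.41%, against 1.7%). The leukocyte marker sums were also higher under DSS and in KO, and their part in these counts was not tested. The median log2 fold change of the 54 genes was 0.17 for DSS in WT and 0.05 in KO, beside 0.01 and 0.02 over all genes tested, and 0.08 and 0.01 for KO against WT untreated and under DSS, beside 0.00 for all genes in both.

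Among 7 noncanonical ligands, 2 had enough reads to be tested, Ltb and Tnfsf13b. Tnfsf13b averaged 6.54 CPM in untreated WT, 5.37 in DSS-treated WT, 4.14 in untreated KO and 4.96 in DSS-treated KO, without a call. Ltb, the lymphocyte-made subunit of the membrane ligand of Ltbr, was higher in KO. Its counts were 1, 2 and 1 in untreated WT, 5, 9 and 5 in DSS-treated WT, 26, 19 and 27 in untreated KO and 27, 16 and 43 in DSS-treated KO. All KO libraries lay above all WT libraries, and no level exceeded 5.96 CPM. From summed counts the untreated KO to WT ratio was 14.5 (95% exact interval 5.44 to 54.8, counting error only), and under DSS it was 4.66 (2.81 to 8.12). The fitted log2 fold changes were 3.75 (SE 0.66, edgeR adjusted p 0.005) and 2.21 (SE 0.54, adjusted p 0.0406). The call under DSS was lost without any WT DSS or untreated KO library and without KO DSS replicate 1 or 3 (1.91 to 2.45, adjusted p 0.0659 to 0.173), and with every gene of at least 1 count kept (adjusted p 0.0539). Ltb and the pan-leukocyte sum were both lowest in untreated WT, and the part of leukocytes in the Ltb result was not tested. The other ligands (Lta, Tnfsf11, Tnfsf12, Tnfsf14 and Cd40lg) had at most 10 counts in a library.

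Of 6 further receptors that can feed the noncanonical pathway, 4 were tested and 2 passed in a comparison. For DSS in WT it was 1 (against 6.3% of all genes), and for KO against WT untreated 1 (against 3.48%). Tnfrsf1b, the second TNF receptor, rose under DSS in WT from 46.7 ± 8.1 to 98.1 ± 11.1 CPM (SD, n = 3, log2 fold change 1.07, SE 0.17, edgeR adjusted p 0.00106). In KO, Tnfrsf1b averaged 55.7 CPM untreated and 78.3 under DSS, without a call. Tnfrsf8, which encodes CD30, was lower in untreated KO, with 3.50, 4.15 and 2.97 CPM against 12.4, 14.1 and 5.56 in WT (-1.59, SE 0.37, adjusted p 0.0272). The Tnfrsf8 call was lost without WT untreated replicate 1 or 2 or any untreated KO library (-1.72 to -1.35, adjusted p 0.0654 to 0.122), and in a fit of the 6 samples compared (-1.57, adjusted p 0.111). Cd40 and Tnfrsf13c had at most 8 and 6 counts in a library.

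Of 14 tested genes that control NIK and p100 processing, 1 was called in any of the 5 comparisons, under DSS in WT, where 6.3% of all genes were called. Birc3, which encodes the ligase cIAP2, rose there from 79.7 ± 17.6 to 121 ± 2.8 CPM (SD, n = 3; 0.61, SE 0.15, edgeR adjusted p 0.0202). It no longer passed without WT untreated replicate 1 or any WT DSS library (0.59 to 0.62, adjusted p 0.0613 to 0.0725), nor in a fit of the 6 samples compared (0.60, adjusted p 0.0833). In KO, Birc3 averaged 110 CPM untreated and 126 under DSS, without a call. Among 18 genes of canonical IKK activation, 2 rose under DSS in KO, where 3.92% of all genes were called. Myd88, the adaptor of Toll-like and IL-1 receptors, rose from 66.2, 62.0 and 57.9 CPM to 90.9, 100.2 and 92.4, by 0.61 (SE 0.12, adjusted p 0.0118), and Rnf31, a subunit of the linear ubiquitin ligase, by 0.52 (SE 0.11, adjusted p 0.0148). Myd88 was lost without KO untreated replicate 2 or 3 or KO DSS replicate 2 (0.56 to 0.60, adjusted p 0.0543 to 0.0713). Rnf31 was lost without KO untreated replicate 2 or 3 or KO DSS replicate 1 or 2 (0.47 to 0.53, adjusted p 0.058 to 0.089). In WT the means also went up under DSS, from 63.2 to 76.1 CPM for Myd88 and from 106 to 127 for Rnf31, without a call. In KO, Rnf31 went from 91.8 to 132 CPM. The interaction called 0 of the 18 genes.

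Of 9 genes of the IkB family and NF-kB feedback, 3 rose under DSS in WT (Nfkbia, Nfkbiz and Tnfaip3), where 6.3% of all genes were called. Under DSS in KO 2 rose (Nfkbiz and Bcl3), against 3.92% of all genes called. Finally, 2 were higher in untreated KO than in untreated WT, against 3.48% of all genes called. The latter were Nfkbia and Tnip1 (0.60, adjusted p 0.0457), a partner of A20 that falls outside the naming rule and was chosen after its value was seen. The Tnip1 call is close to the threshold, and whether it holds under the alternatives is not reported here. Nfkbia, which encodes IkB-alpha, stood at 138, 128 and 125 CPM in untreated WT, 334, 337 and 303 in DSS-treated WT, 235, 258 and 259 in untreated KO and 216, 249 and 279 in DSS-treated KO. Untreated WT lay apart from the other 3 groups. Nfkbia rose under DSS in WT by 1.32 (SE 0.11, edgeR adjusted p 2.49e-06), and KO against WT untreated was 0.94 (SE 0.11, adjusted p 0.000134). Tnfaip3, which encodes the deubiquitinase A20, rose under DSS in WT from 82.9, 108 and 69.8 CPM to 205, 178 and 193, by 1.14 (SE 0.15, adjusted p 0.000174). In KO, Tnfaip3 averaged 124 CPM untreated and 159.5 under DSS, without a call.

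Nfkbiz, which encodes the nuclear cofactor IkB-zeta, stood at 139, 152 and 181 CPM in untreated WT, 397, 356 and 382 in DSS-treated WT, 123, 122 and 123 in untreated KO and 158, 184 and 158 in DSS-treated KO. It rose under DSS by 1.26 in WT (SE 0.11, edgeR adjusted p 5.16e-06) and by 0.44 in KO (SE 0.11, adjusted p 0.039), and KO was lower than WT under DSS by a log2 fold change of -1.18 (SE 0.11, adjusted p 2.89e-05). The KO call was lost with the replicate number as a block (adjusted p 0.064) and without any WT DSS, untreated KO or KO DSS library (0.36 to 0.48, adjusted p 0.0588 to 0.178). Bcl3, an IkB-like partner of p50 and p52 dimers, stood at 25.6, 36.8 and 29.9 CPM in DSS-treated KO and between 9.27 and 17.4 in the other 9 libraries. It rose under DSS in KO by 1.08 (SE 0.23, adjusted p 0.0166) and was higher in KO than WT under DSS by 1.02 (SE 0.23, adjusted p 0.0277). The first Bcl3 call was lost without any untreated KO library or KO DSS replicate 2 or 3 (0.92 to 1.15, adjusted p 0.0502 to 0.0931), and the second without any WT DSS library or KO DSS replicate 2 or 3 (0.87 to 1.09, adjusted p 0.074 to 0.138).

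**Figure D5:**
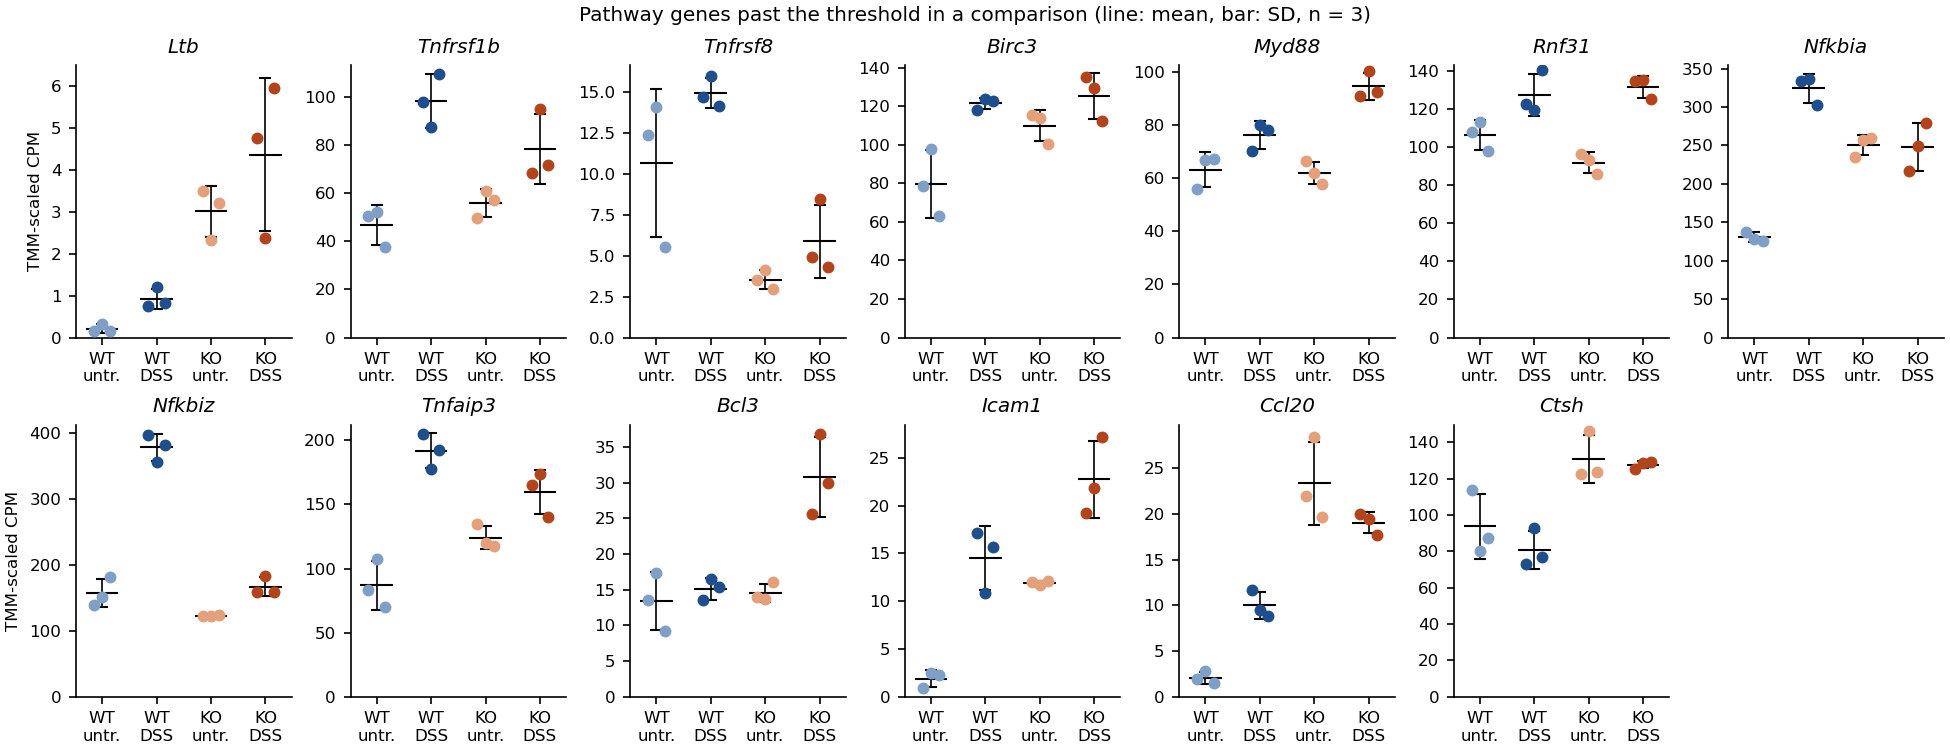
TMM-scaled CPM (y axes, each from 0) of the 13 pathway genes named by rule, in each library of the 4 groups (points, with the mean as a line and the SD as a bar, n = 3). Nfkbia, Icam1 and Ccl20 are lowest in untreated WT, whereas Bcl3 is highest in DSS-treated KO, at 25.6 to 36.8 CPM.

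Of 8 known Relb and p52 targets of lymphoid stroma, Icam1 was the 1 gene tested, and Ccl19, Madcam1 and Enpp2 had 0 counts in every library. Icam1, an adhesion molecule that binds leukocyte integrins, stood at 0.87, 2.46 and 2.32 CPM in untreated WT, 17.2, 10.8 and 15.7 in DSS-treated WT, 11.98, 11.7 and 12.1 in untreated KO and 19.3, 21.8 and 27.2 in DSS-treated KO. It rose under DSS in WT by 2.95 (SE 0.34, edgeR adjusted p 5.78e-05) and was higher in untreated KO by 2.67 (SE 0.34, adjusted p 0.000348).

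Of 11 M cell genes, 6 were tested. KO against WT called 1 higher untreated (against 3.48% of all genes) and 2 higher under DSS (against 3.11%), with 0 lower in both. Spib, Anxa5, Ccl9 and Marcksl1, outside the naming rule, passed in none of the 5 contrasts. Mean CPM in untreated WT and KO was 3.68 and 1.47 for Spib and 71.0 and 90.7 for Anxa5. It was 6.965 and 12.8 for Ccl9 and 7.49 and 11.4 for Marcksl1. Ccl20, the chemokine that draws cells bearing CCR6 to the follicle epithelium, stood at 1.89, 2.79 and 1.55 CPM in untreated WT, 11.7, 9.47 and 8.81 in DSS-treated WT, 21.9, 28.4 and 19.7 in untreated KO and 20.0, 19.4 and 17.7 in DSS-treated KO. All KO libraries lay above all WT libraries. KO against WT was 3.49 untreated (SE 0.28, edgeR adjusted p 5.09e-06) and 0.93 under DSS (SE 0.24, adjusted p 0.0498), and DSS in WT was 2.26 (SE 0.28, adjusted p 0.000126). The Ccl20 call under DSS was lost without WT untreated replicate 1 or any WT DSS, untreated KO or KO DSS library (0.85 to 1.06, adjusted p 0.0506 to 0.184), and with every gene of at least 1 count kept (adjusted p 0.0721). Ctsh, a lysosomal protease, was higher in DSS-treated KO by 0.66 (SE 0.14, adjusted p 0.0222), a call lost without WT DSS replicate 1 or 3 or any KO DSS library (0.59 to 0.67, adjusted p 0.058 to 0.123). Gp2, a surface marker of mature M cells, had counts in 1 library, and Sox8, which M cells need to mature, had 4 counts in all.

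By Pearson's r of log2 CPM over the 12 libraries, computed for the 8860 genes whose mean reached 3, genes among those most like Nfkb2 were Reg3b (0.96) and E2f2 (0.94). Those most like Relb were Msn (0.93), Slc38a7 (0.93) and Ubd (0.93), and those most like Rela were Clptm1l (0.93), Mia2 (0.93) and Mlycd (0.92). For Rel they included Plk2 (0.92) and Klf11 (0.91). Nfkb1 had no partner as close, with Fkbp8 (0.83), Dpf2 (0.80) and H2afj (0.77). These values are a description over libraries of 4 groups that share genotype, treatment and leukocyte content. Among the 10 genes themselves, r ran from -0.80 for Nfkb2 with Traf2 and -0.68 for Nfkb2 with Relb to 0.60 for Rela with Ltbr.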

How the data were processed

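RNA was sequenced from 12 samples. The deposited files hold raw, whole-number read counts per gene. Per the labels' protocols, about 90% of the isolated cells were typically epithelial by flow cytometry, RNA integrity numbers were 7.2 to 9.2 (median 8.8), and libraries of 2 ng of RNA were built by SMART-seq2 with Nextera XT, which marks neither strand nor molecules. The submitters' processing notes name STAR 2.5.2b, featureCounts 1.5.0 and GRCm38/mm10, without the counting options. Symbols and coordinates came from GENCODE M21: of 46517 gene IDs, 46005 matched without their version and 512 did not. No pair of replicates agreed within sampling noise (chi-square per degree of freedom 6.86 to 29.5 over 12 pairs).

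Genes were kept by filterByExpr (12522, holding 99.8% of counts), scaled by TMM and fitted with edgeR 4.0.16 (R 4.3.3), with 1 coefficient per group over 12 samples. The quasi-likelihood test was applied to 5 contrasts and 2 averages, two-sided, and a gene passed at a Benjamini-Hochberg adjusted p under 0.05 over all genes tested. Adjusted p values are from this test unless DESeq2 (1.42.0) is named. Log2 CPM used a prior count of 2. The detection floor was set at 3 counts (0.370 to 0.536 CPM), and count intervals cover counting error only. No ERCC row was among the values, so no spike-in scaling was made.

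Named genes are the 10 listed ones, up to 4 genes of each of 7 pathway lists past the threshold in any of the 5 contrasts (by smallest adjusted p), and the 3 genes most correlated with each subunit. Some results that this rule selects are not reported here. These genes, lists and tests were chosen with earlier results of these data known. Markers of 8 cell types were summed. Same-numbered samples, by the titles, deviated together in all 3 pairs of the DSS contrast in KO (r 0.20, 0.11 and 0.13), in 2 of 3 pairs in WT (0.01, 0.12 and 0.13) and in no pair of KO with WT. By a cutoff of 0.1 in every pair, DSS in KO counts as paired and the other contrasts do not. The main fit nonetheless used group means without pairing for every contrast, so the main DSS results in KO ignore this pairing. Pairing entered only through the replicate block, run as an alternative. Same-numbered untreated and DSS libraries also carry consecutive library numbers. Alternatives were RLE size factors, 2 other filters, DESeq2, fits of the 6 samples compared, a replicate block, each library left out in turn, and the longest transcript as gene length. The fit was tested on simulated data.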

Additional observations from a re-analysis of the deposited data

Results flagged for a closer look

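The DSS change differed between genotypes, by the interaction in the edgeR fit (DSS change in KO minus DSS change in WT, 3 samples per group), for 4 genes of the listed pathway. They were 7.41% of the 54 tested, against 1.7% of all genes. Ccl20 gave -2.56 (SE 0.36, adjusted p 0.0013), a change of 2.26 in WT against -0.30 in KO. Icam1 gave -2.02 (SE 0.44, adjusted p 0.0273), with 2.95 in WT and 0.93 in KO. Nfkbia gave -1.33 (SE 0.15, adjusted p 0.000206), with 1.32 in WT and -0.01 in KO. Nfkbiz gave -0.82 (SE 0.16, adjusted p 0.0119), with 1.26 in WT and 0.44 in KO. In each case the WT change was the larger, and for Ccl20, Icam1 and Nfkbia the untreated KO level already lay above the untreated WT level. The Icam1 value did not pass without WT untreated replicate 1, WT DSS replicate 1 or 3, any untreated KO library, or KO DSS replicate 1 or 2 (-2.03 to -1.66, adjusted p 0.0504 to 0.0891). None of the 10 genes themselves had an interaction past the threshold (edgeR, smallest adjusted p 0.634, with 0 of 10 at an unadjusted p under 0.05 and 0 of 10 by DESeq2).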

How the results depend on the processing

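The Nfkb2 difference between genotypes kept its direction and passed in every alternative run. Of 1671 values of single genes under alternatives, 84 no longer passed, 14 newly passed and 0 that passed changed sign, while 69 values that passed in neither fit changed sign. The counts over all genes moved by over 1.5 times as follows. With DESeq2 the genes called were 779 for DSS in KO, 736 for KO against WT untreated, 637 for KO against WT under DSS and 354 for the interaction, against 491, 436, 390 and 213. With every gene of at least 1 count kept they were 776, 703, 642 and 356. With the 6 samples compared alone they were 467 for DSS in WT (main count 789) and 195 for KO against WT untreated.

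Leaving out each library in turn gave 483 to 958 genes for DSS in WT, 235 to 710 for DSS in KO, 212 to 725 for KO against WT untreated, 160 to 566 for KO against WT under DSS, 152 to 350 for the interaction and 486 to 1000 for KO against WT averaged over treatments (745 in all 12). Of the 10 genes it called 0 to 1 for DSS in WT, 1 to 2 for KO against WT under DSS, 0 to 1 for DSS averaged over genotypes and 1 to 2 for KO against WT averaged over treatments. DESeq2 called 2 of the 10 in KO against WT untreated, 2 under DSS and 4 averaged over treatments. In that average it called 1094 of all genes, against 745 in the main fit. With every gene of at least 1 count kept, DSS averaged over genotypes called 3. It then called 1487 of all genes, against 1117 in the main fit. With the longest transcript, 6 of the 10 genes kept their rank of level, and the log2 ratio of Nfkb2 to Nfkb1 was 0.21. The cause of these shifts was not tested.

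With the replicate block, 695, 409, 345, 290 and 186 genes were called in the 5 contrasts, and no call of the 10 genes changed. With the block, Ltb (adjusted p 0.0883) and Ccl20 (0.0601) in KO against WT under DSS, where no pair deviated together, and the Icam1 interaction (0.0507) no longer passed. Nfkbiz for DSS in KO, where the pairs did deviate together, was lost with the block as well (edgeR adjusted p 0.064). The block shares its effects between WT and KO, so this is not a paired test of DSS in KO. Depth limits Map3k14, Traf3 and Rel most, with at most 89, 142 and 172 counts in a library.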
